A study of Mus musculus with 262 samples.

Results

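The 19 single cells that the authors labelled as proximal tubule cells were compared, gene by gene, with the single cells that they labelled as collecting duct epithelium. The collecting duct cells comprised 87 type A intercalated, 23 type B intercalated and 74 principal cells. Members were chosen by the type name that opens each column of the deposited single-cell expression table, and they make up 19 of 235 single cells and 262 samples in all. The remaining 32 cells carry a non-epithelial label.

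The proximal tubule is the first segment of the nephron and reclaims most filtered sodium, bicarbonate, phosphate, glucose, amino acids and small proteins from the urine. Its cells carry a brush border, take up proteins through the receptors megalin and cubilin, burn fatty acids, make glucose, and secrete organic anions, cations and drugs. The collecting duct lies at the far end of the nephron. There principal cells move water and sodium through aquaporins and the epithelial sodium channel, and intercalated cells move acid and base through a vacuolar proton pump and anion exchangers.

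All mice were 2-month-old males, and no treatment was labelled. The single cells came from C57BL/6 kidneys and were sorted and then captured on a microfluidic chip. Of the samples titled as proximal tubule cells, 9 were sorted with DBA and c-Kit together, 8 with DBA and 2 with c-Kit. Of type A cells, 60 were sorted with both, 25 with c-Kit and 2 with DBA. Of type B cells, 17 were sorted with PNA, 4 with c-Kit, 1 with DBA and 1 with both. Of principal cells, 37 were sorted with DBA and 37 with both. Sorting thus differed between the groups compared, and its part in the differences was not tested. These sort labels could not be tied to columns of the table. Bulk samples of sorted C57BL/6 cells comprised 2 sorted with c-Kit and 2 with DBA. Another 2 GFP-positive and 2 GFP-negative bulk samples came from a strain named Atp6v1b1GFP, whose promoter the labels do not describe. Atp6v1b1 encodes a proton pump subunit of intercalated cells. Single hand-dissected C57BL/6 tubules comprised 11 of the cortical collecting duct (CCD) and 8 of the cortical thick ascending limb (cTAL), of which several share a mouse by their column names. Expression is given in TPM (a transcript level per length that sums to a fixed total in each sample) except in the GFP samples, which have read counts. For the tubules the unit is not stated and was read as TPM from column sums.

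No animal is named for any cell, and the authors named the types from these same transcriptomes. Each cell type was therefore treated as 1 sample, so differences between proximal tubule and collecting duct cells are given as descriptions without a test. A gene is called here higher in a group when its mean was at least 10 TPM there and its log2 difference, computed on the mean plus 1 TPM, was at least 2, a 4-fold difference. TPM keeps no read depth, so the depth behind single-cell and tubule values is unknown. Intervals on shares of cells are exact Clopper-Pearson 95% intervals and cover counting error only.

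The 5 genes called defining markers here were picked as markers of this group and are not named by the column labels. All 5 were higher in the proximal tubule columns, where 12.7% of all genes at 10 TPM or more in a group were. Lrp2 encodes megalin, Slc34a1 the main phosphate carrier of the brush border, Miox the enzyme that breaks down inositol, Hao2 a peroxisomal hydroxyacid oxidase and Slc7a9 the light chain of the cystine carrier. Lrp2 ran from 0.02 to 1142 TPM over the 19 columns with a median of 49.0 TPM, against a mean of 1.10 TPM in collecting duct cells. It reached 1 TPM in 18 of 19 columns (94.7%, interval 74.0% to 99.9%) and in 8 collecting duct cells (4.35%, interval 1.90% to 8.39%). Slc34a1 ran from 0.11 to 1908 TPM with a median of 602 TPM and reached 1 TPM in 18 columns. In collecting duct cells its mean was 20.8 TPM, and 33.2% of them had it at 1 TPM or more. Megalin and the phosphate carrier were thus present in nearly every proximal tubule column, but their levels spread over several orders of magnitude.

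Miox ran from 0 to 13314 TPM with a median of 495 TPM and was at 1 TPM or more in 15 columns. It was also found in 41.3% of collecting duct cells, at a mean of 79.6 TPM. Hao2 ran from 0 to 2070 TPM with a median of 28.4 TPM, again in 15 columns, against 4.35% of collecting duct cells. Slc7a9 was the least regular of the 5 markers. It reached 1 TPM in 10 columns, with a median of 1.49 and a maximum of 1740 TPM, and in 2.72% of collecting duct cells. All 5 markers were present at 1 TPM in 7 of 19 proximal tubule columns and 1 collecting duct cell, and at least 4 in 13 and 2.

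Of the defining genes, 3 hold a short shared motif in the 250 bases before their RefSeq start. The windows are shown because these genes are among the defining markers used here and the motif can be seen in them. Sequences are from RefSeq (GRCm38.p6), written 5′ to 3′ on the strand of the gene, with capitals marking GTTAAT or its reverse complement ATTAAC. The Slc34a1 window is chr13:55399549-55399602 on the plus strand, the Miox window chr15:89334321-89334346 on the plus strand and the Hao2 window chr3:98893257-98893480 on the minus strand.
Slc34a1: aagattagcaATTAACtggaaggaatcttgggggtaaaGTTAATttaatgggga
Miox: gtactgatacATTAACttgctgaggt
Hao2: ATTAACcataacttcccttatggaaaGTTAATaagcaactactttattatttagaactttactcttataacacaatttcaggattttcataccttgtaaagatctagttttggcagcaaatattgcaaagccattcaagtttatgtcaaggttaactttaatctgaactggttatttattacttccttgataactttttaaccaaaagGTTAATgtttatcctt

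The Slc34a1 window holds 2 matches, the Miox window 1 and the Hao2 window 3, which lie 250, 224 and 42 bases before the Hao2 start. GTTAAT on either strand was present in 25 of 125 matched genes of the proximal tubule lists (20.0%), against 7.49% of the 27025 genes with a promoter in the table. Among the 12 matched genes of the 15 highest in proximal tubule columns it was present in 1, Hao2, and among the 12 matched genes of the 15 highest in collecting duct cells in 2, Oxgr1 and Atp6v1g3. An HNF4 motif, CAAAGTCCA on either strand, was in 1.6% of the 125 genes and 0.451% of all. A match describes the letters and is not evidence of binding. Gene models for these markers (GRCm38, GENCODE M21) lie at chr2:69424340-69586065 for Lrp2, chr13:55398187-55415592 for Slc34a1, chr15:89334398-89337015 for Miox, chr3:98874521-98893239 for Hao2 and chr7:35448796-35466036 for Slc7a9. The Slc34a1 window lies inside its gene model, so the RefSeq start used there is not the start of that model. The Miox and Hao2 windows lie before theirs.

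**Figure D1:**
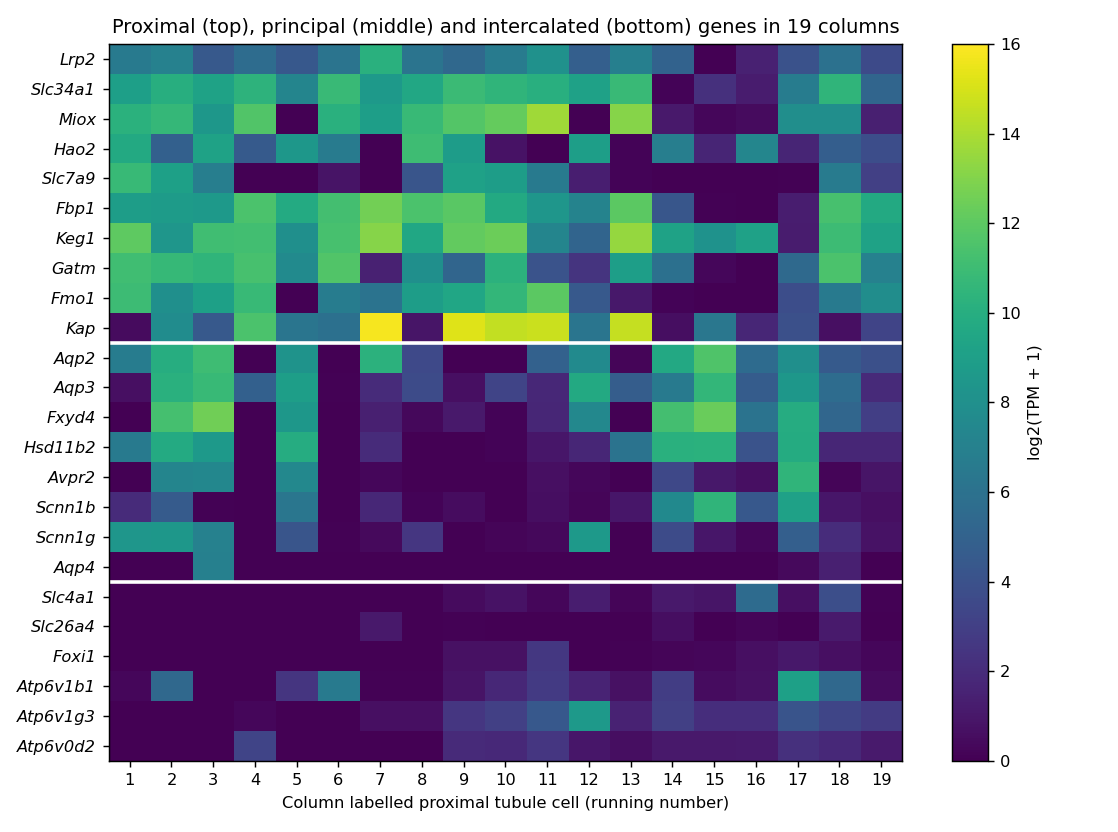
Level, as log2(TPM + 1), of 10 proximal tubule genes (top), 8 principal cell markers (middle) and 6 intercalated cell markers (bottom) in each of the 19 columns labelled proximal tubule cell, which are numbered as in the table. Keg1 is present in all 19 columns, Kap is between 23976 and 56487 TPM in 5, and several columns, among them 3 and 15, are bright in the principal cell rows.

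The label held unevenly across the 19 columns. The summed level of the 5 defining markers ran from 6.14 to 14778 TPM, with 13 columns at 1000 TPM or more, against a median of 2.57 TPM over collecting duct cells, of which 4 reached 1000 TPM. The summed level of the 8 principal cell markers, which include Aqp2, Fxyd4 and the sodium channel subunits, ran from 0.11 to 12435 TPM in the same columns. Of the 19 columns, 8 were above the lowest principal cell (1256 TPM), and 2 of them (columns 3 and 15) were within the interquartile range of principal cells, whose median was 11214 TPM. The intercalated sum stayed between 4.54 and 563 TPM, against a median of 3923 TPM over all collecting duct cells.

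In 9 of 19 columns another sum exceeded that of the defining markers. The principal sum did so in columns 2, 3, 5, 12, 14, 15, 16 and 17, and the intercalated sum in column 19. Column 15 had 0.02 TPM of Lrp2, 3.70 TPM of Slc34a1, 3113 TPM of Aqp2 (the water channel of principal cells) and 5158 TPM of Fxyd4. The other 10 columns had defining sums between 1823 and 14778 TPM, and the principal sum was under 100 TPM in 7 of them. By the same count, 1 collecting duct cell, of type A, had a defining sum (183.7 TPM) above its principal (119 TPM) and intercalated (1.13 TPM) sums. Whether these 9 columns hold cells of another type, more than 1 cell or free RNA was not tested, and results that rest on them are given below with and without them.

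**Figure D2:**
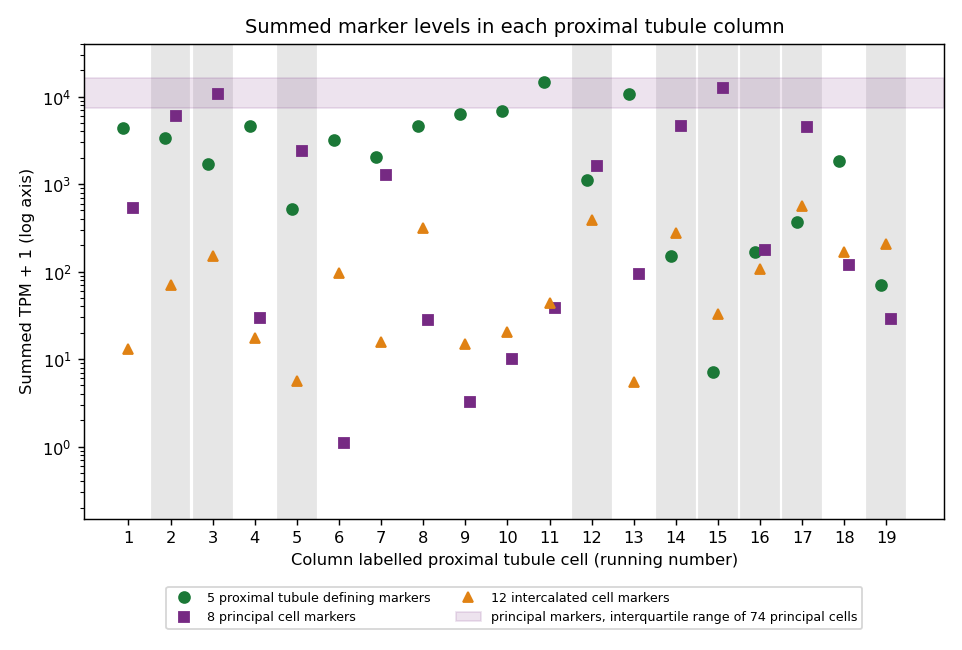
Summed TPM plus 1 (log axis) of the defining, principal cell and intercalated cell markers in each of the 19 proximal tubule columns, with the band marking the interquartile range of the principal sum over 74 principal cells. Grey columns are the 9 in which another sum exceeds the defining one, and columns 3 and 15 reach the band.

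Other measures moved with the marker sums over the 19 columns. The principal sum was lower where the defining sum was higher (Spearman's rho -0.57 over 19 columns, a description of columns that share the fixed TPM total), and the summed level of 12 genes induced by tissue dissociation, such as Fos and Egr1, was also lower (rho -0.51). Principal and dissociation sums were higher together (rho 0.47). The number of genes at 1 TPM or more ran from 1339 in column 7 to 3939 in column 17, with a median of 3253, against 2797 in collecting duct cells. Mitochondrial transcripts took 2.22% to 48.6% of TPM, with a median of 14.2% against 13.8%. Markers of other cells differed by type. Red cell genes were at 0 in all 19 columns, and the endothelial sum reached at most 7.86 TPM and the stromal sum 1.22 TPM. The podocyte sum had a median of 0 TPM and reached 859 TPM in column 14, all of it Wt1, with Nphs1 and Podxl at 0 throughout. The thick ascending limb sum reached 700.0 TPM in column 1 (a median of 0.27 TPM). The distal convoluted and connecting tubule sum had a median of 5.07 TPM against 13.7 TPM in collecting duct cells, and reached 1284 TPM in column 5, 590 TPM in column 17, 584 TPM in column 1, 305 TPM in column 14 and 243 TPM in column 8. Nearly all of it was the calcium-binding protein gene Calb1, with Slc12a3, the defining sodium chloride carrier, at 0 throughout. The leukocyte sum had a median of 59.5 TPM against 14.7 TPM in collecting duct cells and reached 2334 TPM in column 10, mostly Cd74, with Ptprc, the pan-leukocyte marker, under 1 TPM throughout. The part of these markers in the results was not tested.

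Across all 47069 genes, 8249 had a mean of 10 TPM or more in either group. Of these, 1046 (12.7%) were at least 4-fold higher in the proximal tubule columns and 1890 (22.9%) at least 4-fold higher in collecting duct cells. The median log2 difference over the 8249 genes was -0.37. The balance turned with the summary of cells, since medians gave 344 genes higher in the proximal tubule columns and 216 in collecting duct cells, and a 10% trimmed mean gave 1402 and 324. In the 10 columns left after removing the 9, the corresponding counts were 940 (11.8% of 7956) and 3203 (40.3%), with a median of -1.28 over all genes, and 672 of the 940 genes were among the 1046. Removal of those columns used the proximal and collecting duct markers themselves and also left fewer columns. The part of each in the wider gap was not tested.

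**Figure D3:**
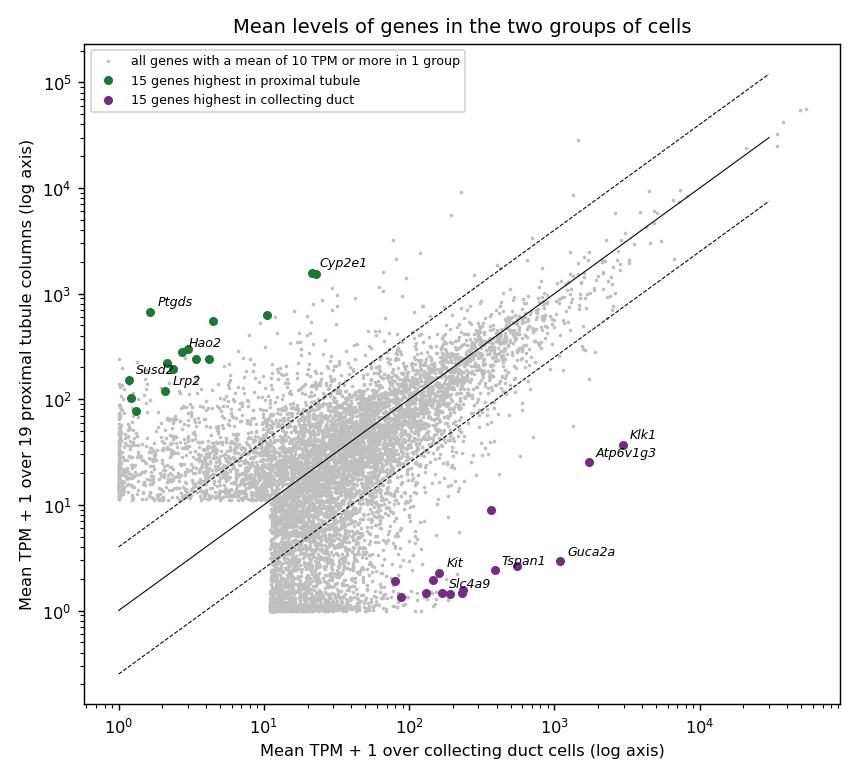
Mean TPM plus 1 in the 19 proximal tubule columns against the collecting duct cells for the 8249 genes, on log axes, with the solid line at equality and dashed lines at 4-fold. Among genes averaging 50 TPM or more and found in 50% or more of the higher group, the 15 highest in the proximal tubule columns (green) have log2 differences of 5.85 to 8.67, and the 15 highest in collecting duct cells (purple) of -5.35 to -8.53.

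The proximal tubule gene lists, 161 genes in the table, had 100 members at least 4-fold higher in the proximal tubule columns and 0 at least 4-fold lower, with a median log2 difference of 3.37, against the 12.7% and 22.9% of all genes. The 10 columns gave 103 higher, 4 lower and a median of 3.87. Such genes are among those by which proximal tubule cells are recognised, so the counts describe the label. Members of large families of near-identical genes (Ugt2b37 and Ugt2b38, Cyp4a10 and Cyp4a14, Slc22a19 and Slc22a30) can share reads, and their levels are uncertain.

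Among genes of protein uptake, 5 of 10 were higher. Besides Lrp2, Cubn (cubilin) had a mean of 11.3 TPM in the proximal tubule columns and 0.03 TPM in collecting duct cells, with 1 TPM or more in 9 columns, and its partner Amn had 38.9 against 0.98 TPM. Lgmn and Gm2a, which encode lysosomal proteins, were also higher. Clcn5, the endosomal chloride transporter, lay the other way at 23.5 against 58.7 TPM, short of 4-fold, and Dab2, the adaptor of megalin, was at 190 and 186 TPM. In the 10 columns Clcn5 was at least 4-fold lower (log2 -2.64).

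Sugar, phosphate, sulfate and carboxylate carriers were higher in 12 of 16 cases. Slc2a2, the basolateral glucose carrier, had a mean of 160.5 against 2.43 TPM and was at 1 TPM or more in 15 columns. Slc5a2, the high-capacity glucose carrier SGLT2, had 137 against 4.65 TPM in 8 columns. The phosphate carrier Slc34a3 had 32.5 against 0.01 TPM, carried by 3 columns. Pdzk1, a scaffold of brush border carriers, had 407 against 19.0 TPM and was found in 18 columns. Slc5a1, the glucose carrier SGLT1 of the last proximal segment, did not reach 1 TPM in any of the 19 columns and was at 9.82 TPM in collecting duct cells.

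Amino acid and peptide carriers were higher in 9 of 15 cases. The cystine carrier's heavy chain Slc3a1 had 95.7 against 0.21 TPM in 8 columns, beside its light chain Slc7a9 at 192 against 1.36 TPM. Slc6a19, the main neutral amino acid carrier, had 85.3 against 3.77 TPM, and Slc7a7 had 83.8 against 1.92 TPM. Slc7a8, the light chain of a basolateral carrier, did not differ 4-fold at 38.3 and 31.9 TPM.

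Carriers of organic ions and drugs were higher in 12 of 17 cases. The anion carrier Slc22a6 (OAT1) had 75.4 against 2.13 TPM, the cation carrier Slc22a2 had 33.3 against 1.73 TPM, and the urate carrier Slc22a12 had 81.5 against 3.42 TPM. Slc22a5, the carnitine carrier, had a mean of 309 TPM, but 1 column, number 7, held 5661 TPM and the median was 2.83 TPM. Slc22a7 and Slc22a19 were under 0.2 TPM in all 19 columns.

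Genes of acid-base transport, water and tight junctions were higher in 7 of 12 cases. The basolateral bicarbonate carrier Slc4a4 was at 1 TPM or more in 18 columns, with 194 against 11.4 TPM, and the pore-forming claudin Cldn2 in 12, with 64.4 against 2.88 TPM. Aqp1, the water channel of the proximal tubule, was found in 2 columns at a mean of 16.1 TPM, and the sodium-proton exchanger Slc9a3 in 1 column. Both of these textbook genes had a median of 0 TPM over the 19 columns.

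Brush border enzymes were higher in 10 of 17 cases, with Ggt1 at 241 against 6.98 TPM and the villin gene Vil1 at 35.6 against 0.24 TPM in 10. Mme, which encodes neprilysin, was at 93.9 TPM and lower than the 332 TPM of collecting duct cells, short of 4-fold in the 19 columns and past it in the 10 (log2 -2.27).

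Genes of peroxisomes and fatty acid oxidation were higher in 9 of 20 cases. Cyp4b1 had 901 against 41.3 TPM in 17 columns. The mitochondrial enzymes Acadl, Acadm, Acaa2 and Hadha all lay within 4-fold (log2 0.19, 0.74, 0.61 and -1.25). All 8 genes of gluconeogenesis and fructose use were higher. Fbp1 had 1523 against 21.8 TPM, Pck1 347 against 15.9 TPM and G6pc, which releases free glucose, 156 against 11.4 TPM.

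Genes of amino acid, inositol and one-carbon metabolism were higher in 10 of 17 cases. Gatm, the first enzyme of creatine synthesis, had 863 against 24.1 TPM and Ass1, an enzyme of arginine synthesis, 424 against 11.4 TPM. Detoxification and steroid genes were higher in 14 of 17 cases, among them Keg1 at 2449 against 118 TPM in all 19 columns, Akr1c21 at 1392 against 94.3 TPM and Ugt2b38 at 977 against 30.8 TPM. Cyp24a1, the vitamin D 24-hydroxylase, had a mean of 51.8 TPM that came from column 7 alone (984 TPM).

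Transcription factors were higher in 4 of 11 cases in the 19 columns and 3 of 11 in the 10. Hnf4a, a nuclear receptor of proximal tubule differentiation, had 25.0 against 0.72 TPM in 9 columns. Maf had 217 against 19.3 TPM in 17 columns, and Nr1h4, the bile acid receptor, 58.5 against 0.94 TPM in 9. Tfec had 47.5 against 0.01 TPM, of which column 5 held 785 TPM, and in the 10 columns it was at 0.60 TPM. Pax8, which acts along the whole nephron, differed little (log2 0.45).

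**Figure D4:**
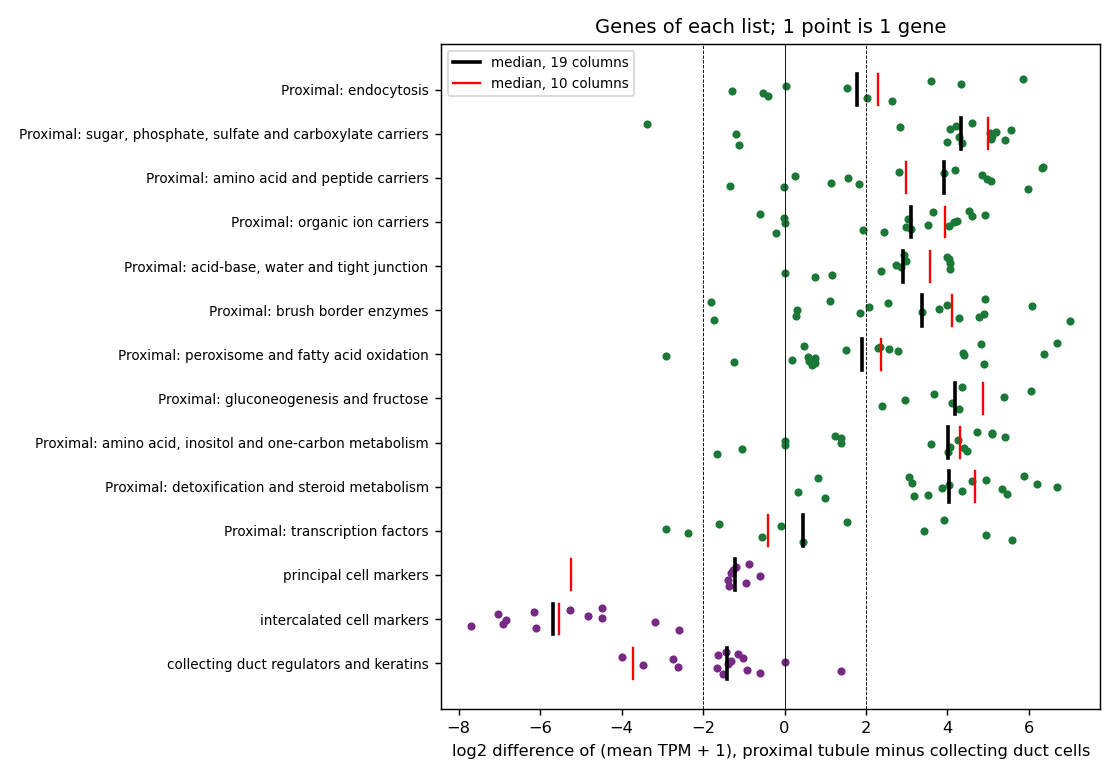
Log2 difference of the mean plus 1 TPM, proximal tubule minus collecting duct cells, with 1 point per gene and genes grouped by list. Black bars are medians in the 19 columns and red bars medians without the 9 columns, and dashed lines mark 4-fold. The median of the principal cell markers moves from -1.23 to -5.24 when the 9 columns are left out. These markers were part of the rule that chose the 9.

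The 15 genes highest in the proximal tubule columns by the naming rule were Ptgds, Susd2, Spp2, Hao2, Pipox, Mettl7b, Cbs, Slc7a9, Cyp2e1, Ugt2b37, Fbp1, Slc23a1, Fmo1, Lrp2 and Aadac. They include peroxisomal oxidases (Hao2 and Pipox), drug-metabolising enzymes (Cyp2e1, Ugt2b37, Fmo1 and the esterase Aadac), the transsulfuration enzyme Cbs and the vitamin C carrier Slc23a1. Each was at 1 TPM or more in 10 to 18 of 19 columns and in 1.63% to 22.8% of collecting duct cells. Spp2 ran from 0 to 1982 TPM with a median of 66.4 TPM against a mean of 3.44 TPM, and Fmo1 from 0 to 3992 TPM with a median of 105 TPM against 9.57 TPM. Fbp1 had the highest median of the 15, 826 TPM.

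Ptgds, which encodes a prostaglandin D synthase, had the largest difference (log2 8.67) and an uneven spread. Its level was 0 TPM in 9 columns and above 600 TPM in columns 1, 8, 12, 14, 16 and 19, with 5667 TPM in column 16. It was at 10 TPM or more in 6 of the 9 columns in which another marker sum exceeded the defining one. Of the 10 others, 3 had it at that level. Its mean was 160.2 TPM in the 10 and 1240.0 TPM in the 9. In collecting duct cells its mean was 0.65 TPM. Ugt2b37 likewise had a higher mean in the 9 columns (302 TPM) than in the 10 (179 TPM), whereas Cyp2e1 (24.9 against 2985 TPM), Mettl7b (23.8 against 545 TPM) and Susd2 (36.9 against 256 TPM) had the reverse.

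The 15 genes highest in collecting duct cells were Guca2a, Atp6v0d2, Tspan1, Serpinb1a, Hepacam2, Tpd52l1, Slc4a9, Tmem117, Klk1, Oxgr1, Kit, Atp6v1g3, Ybx2, Adgrf5 and Paqr5. Many belong to intercalated cells, such as the proton pump subunits Atp6v0d2 and Atp6v1g3, the anion exchanger Slc4a9, the receptor Kit and the oxoglutarate receptor Oxgr1. In the proximal tubule columns Guca2a, which encodes guanylin, was at most 7.99 TPM against a mean of 1088 TPM, and Atp6v0d2 at most 8.81 TPM against 548 TPM. Atp6v1g3 had a median of 3.22 TPM and 379 TPM in column 12, against 1722 TPM. All 12 intercalated markers were at least 4-fold higher in collecting duct cells with or without the 9 columns (median -5.68 and -5.54).

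Principal cell genes gave another picture. None of the 8 principal markers was 4-fold higher in collecting duct cells against the 19 columns, with log2 differences of -0.60 to -1.40. All 8 were against the 10. The summed level of these same markers was part of the rule that chose the 10, so that change is not independent of the choice. The collecting duct group also holds the intercalated cells, which lowers its means for these markers. Their summed level averaged 11929 TPM in principal cells, 5111 TPM in all collecting duct cells and 2347 TPM in the 19 columns. Fxyd4 had a mean of 925 TPM in the 19 columns and 4.39 TPM in the 10, against 2300 TPM in collecting duct cells, and Aqp2 had 486 and 142 against 885 TPM. In the 10 columns Aqp2 came mainly from column 7 (1253 TPM). Of the regulators and keratins of the collecting duct, 3 of 16 were higher in collecting duct cells against the 19 columns, where 22.9% of all genes were, and 12 against the 10, where 40.3% were. Examples are Gata3 (log2 -1.64 and -5.53), Epcam (-0.91 and -6.63) and Krt7 (-1.32 and -7.40). Dissociation genes counted 1 of 12 and 6 of 12 beside the same shares of all genes, and the latter is near its share.

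Injury and rare-cell genes that passed the 4-fold limit, apart from Cd74, rested mostly on a few columns. Vcam1 had 548 TPM in column 14 and 100.2 TPM in column 12 and under 1 TPM elsewhere. Wt1 had 859 TPM in column 14, and the macrophage receptor gene Csf1r had 1073 TPM in column 16. All of these columns are among the 9. Cd74, an antigen-presentation gene, was spread more widely, with 2321 TPM in column 10 and 1591 TPM in column 12. Havcr1 and Krt20, markers of tubule injury, were at or near 0, while Spp1 was present in all 19 columns at a mean of 1339 TPM against 1917 TPM.

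The 6 genes that varied most over the 19 columns were Kap, Cyp2e1, Cml1, Acy3, Miox and the small nucleolar RNA gene Gm24853. Kap, which encodes the kidney androgen-regulated protein of male mouse proximal tubules, had the widest span. It was between 23976 and 56487 TPM in columns 7, 9, 10, 11 and 13, at 2892 TPM in column 4 and at 0.37 to 214 TPM in the other 13 columns. Cyp2e1 was at 1000 TPM or more in 5 columns, the same 5 with the highest Kap, and at most 222 TPM elsewhere. The 6 columns with Kap at 1000 TPM or more all had the anion carrier Slc22a6 at 10 TPM or more and Acy3, an aminoacylase, at 100 TPM or more. All 6 were among the 10 columns, and none had Ptgds above 0 TPM. These overlaps were seen after the values and carry no test.

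Genes of the proximal tubule's successive segments split the columns in part. Of the 10 genes listed for the first and middle segments (S1 and S2), 9 were 4-fold higher than in collecting duct cells. Of the 10 for the last segment (S3), 4 were, beside 12.7% of all genes at 10 TPM or more in a group. Another 3 S3 genes, Slc5a1, Slc22a7 and Slc22a19, reached 1 TPM in no proximal tubule column and so could not count as higher. Slc22a7 and Slc22a19 were present in the GFP-negative bulk samples, as given below. The S1 and S2 count and the S3 count are therefore not a like-for-like contrast of segments. Slc5a2 and Slc5a12, carriers of glucose and lactate in the early tubule, were at 10 TPM or more in 8 and 11 columns. Slc22a6 was at 10 TPM in 8 columns, and Slc7a13, an aspartate and cystine carrier of the last segment, in 4. Slc7a13 occurred with Slc22a6 in all 4 columns, with Slc5a12 in 2 and with Slc5a2 in 1. Column 9 had 1261 TPM of Slc7a13, 465 TPM of Slc22a6 and 0 TPM of Slc5a2, whereas column 1 had 730 TPM of Slc5a2, 734 TPM of Slc5a12 and none of the other pair. Column 10 carried all 4 genes at 169 TPM or more.

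A search made after seeing the values listed genes by detection rather than mean. It found 18 genes at 1 TPM or more in at least 14 of 19 proximal tubule columns and at most 10% of collecting duct cells. Sod3, which encodes extracellular superoxide dismutase, was found in all 19 columns, between 2.49 and 520.5 TPM, and in 5.98% of collecting duct cells. Kcnj15, a potassium channel gene, was found in 17 columns, between 0.06 and 831 TPM, and in 8.15% of collecting duct cells. Igfbp4 was found in 16 columns and 5.98% of collecting duct cells. In the other direction 4 genes were in at most 3 columns and at least 60% of collecting duct cells, namely Scnn1a, Oxgr1, Tmem117 and Gm20518. Scnn1a, the alpha subunit of the sodium channel, was found in 3 of 19 columns, although Scnn1b reached 1 TPM in 8 and Scnn1g in 9.

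Proximal tubule transcripts were also found in collecting duct cells. Of the 161 listed genes, 10 to 75 were at 1 TPM or more per collecting duct cell (median 24), against 33 to 99 (median 77) per proximal tubule column. Together they took 0.47% of TPM in the median collecting duct cell and 3.03% in the median proximal tubule column. Kap was at 1 TPM or more in 75.5% of collecting duct cells (interval 68.7% to 81.6%), with 72.4% of type A, 82.6% of type B and 77.0% of principal cells, and in 90.6% of non-epithelial cells. The share was similar over the types, and Lrp2 was at 4.35% in the same cells. The mean of Kap was 225 TPM in collecting duct cells and 9154 TPM in the proximal tubule columns. Of the listed genes called higher in the proximal tubule columns, Gm2a (76.1%) and Kap were found in the largest shares of collecting duct cells. How much of this is free RNA was not tested.

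GFP sorting offered a replicated test that the naming of single cells did not use. Reads in genes numbered from 35530885 to 40815091 in a sample. The sorted marker's gene Atp6v1b1 was at 15.0 and 11.4 CPM (counts scaled to the library total) in the GFP-negative samples and at 380 and 448 CPM in the GFP-positive samples. By edgeR's quasi-likelihood test with Benjamini-Hochberg adjustment under 0.05, 2715 of 15671 genes (17.3%) were lower and 2386 (15.2%) higher in GFP-positive samples. Of 160 proximal tubule list genes tested, 133 were lower and 5 higher, with a median log2 difference of -2.31, against 0.02 over all genes. In bulk samples, fewer cells of a type and less RNA per cell cannot be told apart. The labels do not say that the 2 samples of a group came from separate animals, so p-values measure the spread between these samples.

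All 15 genes chosen in the proximal tubule columns were lower in GFP-positive samples, with a median of -2.66. Lrp2 had 10276 and 9783 CPM in GFP-negative and 1917 and 1099 CPM in GFP-positive samples (log2 -2.73, SE 0.31, adjusted p = 0.00032). Aadac had 127 and 193 against 19.5 and 17.52 CPM (log2 -3.11, SE 0.24, adjusted p = 6.1e-05), and Slc7a9 62.8 and 67.2 against 9.70 and 8.50 CPM (log2 -2.84). Slc34a1 fell from 1959 and 2575 to 363 and 299 CPM, Miox from 704 and 1290 to 140.2 and 152 CPM, and Hao2 from 296 and 424 to 75.8 and 80.4 CPM. The groups did not overlap for any of these genes, and 34.4% of all genes tested had both GFP-positive values under both GFP-negative values. Ptgds moved least of the 15, from 14.9 and 15.2 to 7.95 and 7.92 CPM (log2 -0.92, adjusted p = 0.029), and its call was lost when any 1 of the 4 samples was left out (-0.90 to -0.95, adjusted p 0.065 to 0.10). All 14 collecting duct genes tested were higher, by a median of 5.33, with Adgrf5 not in the table tested. Tpd52l1 (log2 1.28) lost its call without GFP-positive replicate 2 (1.01, adjusted p = 0.059).

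The lower genes spanned every functional list. All 17 detoxification genes, all 7 tested genes of gluconeogenesis and fructose use, 16 of 17 organic ion carriers and 14 of 16 sugar and phosphate carriers were lower. Kap fell most among detoxification genes, from 6539 and 9551 to 555 and 654 CPM (log2 -3.73). The S3 carrier Slc22a19, near 0 in single cells, had 232 and 449 CPM in GFP-negative and 25.3 and 23.4 CPM in GFP-positive samples (log2 -3.80). Slc22a7 had 112 and 149 against 15.2 and 10.3 CPM. The 5 genes that were higher in GFP-positive samples were Mme (log2 1.57), Abcc4 (1.09), Slc7a8 (1.09), Acaa2 (0.86) and Hadha (0.54). All 12 intercalated markers and 7 of 8 principal markers were higher, and so were all 6 distal convoluted and connecting tubule markers (median log2 3.89) and 2 of 5 thick ascending limb markers. Leukocyte and endothelial genes were lower too, 7 of 7 and 5 of 5 tested, and their part in the result was not tested.

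Sorting with c-Kit against DBA split these genes less sharply. By limma on log2(TPM + 1) with Benjamini-Hochberg adjustment under 0.05, 4033 of 14341 genes (28.1%) were lower and 2315 (16.1%) higher in c-Kit samples. Of 159 proximal tubule list genes, 91 were lower and 19 higher, with a median of -0.38 against -0.11 over all genes. Of leukocyte markers 7 of 8 were lower too (median -1.67), and of dissociation genes 11 of 12 (median -1.23), and their part in the result was not tested. Quantile normalization moved that overall median to 0.02 and gave 3072 genes lower and 3055 higher, with 82 and 26 of the list genes. Of the 15 proximal tubule genes, 14 were lower in c-Kit samples. Spp2 had 151 and 147 TPM in c-Kit and 358 and 366 TPM in DBA samples (log2 -1.27, SE 0.06, adjusted p = 1.5e-05). Slc7a9 had 44.7 and 42.7 against 103 and 95.3 TPM (log2 -1.16), and Lrp2 14.7 and 15.3 against 21.5 and 21.8 TPM (log2 -0.50, adjusted p = 0.0076). Ptgds stood apart, at 13.9 and 17.3 against 244 and 227 TPM (log2 -3.84). Cyp2e1 had 310 and 337 against 238 and 289 TPM and did not pass (log2 0.30, adjusted p = 0.052), nor did Miox (log2 -0.10) or Kap (log2 0.26). The Cyp2e1 call depended on the setting, since it passed as higher with a pseudocount of 0.1 TPM (limma adjusted p = 0.049), a minimum of 10 TPM (0.029), the replicate block (0.011) and without DBA replicate 2 (0.035), over a range of 0.011 to 0.24.

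**Figure D5:**
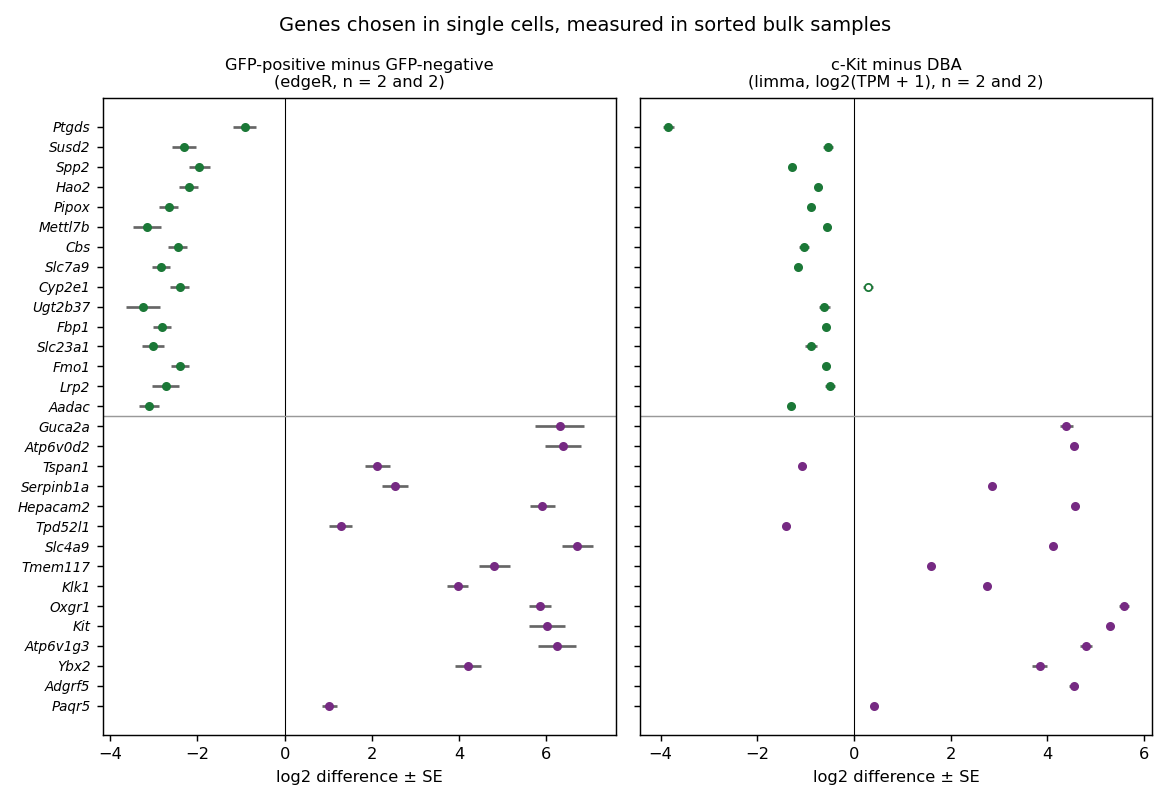
Log2 differences with standard errors in the 2 bulk comparisons for the 15 genes highest in the proximal tubule columns (green) and the 15 highest in collecting duct cells (purple), with open points for genes that did not pass and no point for Adgrf5 in the GFP samples. All 15 proximal tubule genes are left of 0 in the GFP comparison, and 14 in the c-Kit comparison.

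Leaving out 1 sample ended calls in the c-Kit comparison. Lrp2 and Ugt2b37 lost theirs without either DBA replicate and Susd2 without DBA replicate 2, and the list counts became 70 lower and 9 higher without DBA replicate 1 and 63 and 16 without DBA replicate 2. Without c-Kit replicate 2 they were 80 lower and 10 higher, and with no variance trend 82 and 12. Both sorted groups held proximal tubule RNA at levels such as 1116 ± 87 TPM (SD, n = 2) of Slc34a1 in c-Kit and 2237 ± 74 TPM in DBA samples. Of the 10 S1 and S2 genes, 7 were lower in c-Kit samples, among them Slc5a2 (log2 -1.56) and Slc5a12 (-1.81), and 1, the anion carrier Slc22a8, was higher (0.40), with a median of -1.26. Of the 10 S3 genes, 4 were lower, among them Cyp7b1 (-1.81) and Slc22a19 (-0.48, limma adjusted p = 0.041), 2 were higher, Slc7a13 (0.48, adjusted p = 0.044) and Slc22a7 (0.42, adjusted p = 0.024), and 4 did not pass, with a median of -0.10. Among all genes tested, 28.1% were lower and 16.1% higher in c-Kit samples, and the S3 counts are near these shares. Of the collecting duct genes 13 were higher in c-Kit samples, with Kit at 757 and 755 against 17.9 and 18.5 TPM. The other 2, Tspan1 (-1.07) and Tpd52l1 (-1.40), were lower, and in single cells their means were highest in principal cells. All 8 principal markers were lower in c-Kit samples.

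In hand-dissected tubules, which hold no labelled proximal segment, the 15 proximal tubule genes were mostly low. The median over these genes of their median level was 2.82 TPM in both the 11 CCD and the 8 cTAL tubules. They had been chosen by their difference from collecting duct cells. Of the 161 proximal tubule list genes, 67 had a median of 10 TPM or more in CCD and 61 in cTAL. Medians in CCD and cTAL were 70.1 and 44.8 TPM for Miox, 27.9 and 9.93 TPM for Slc34a1 and 0 and 0.045 TPM for Slc7a9. Fbp1 ran from 1.97 to 208 TPM in CCD with a median of 18.4 TPM and from 0.17 to 173 TPM in cTAL with a median of 33.5 TPM. Mettl7b had a median of 22.6 TPM in CCD. Ptgds had medians of 3.18 TPM in CCD and 89.6 TPM in cTAL, and Hao2 of 6.39 and 75.3 TPM, with the lowest cTAL (46.7 TPM) above the highest CCD (24.5 TPM). Kap was present in every tubule, from 312 to 10652 TPM in CCD with a median of 1891 TPM and from 184.2 to 4331 TPM in cTAL with a median of 956 TPM. Lrp2 had medians of 1.57 and 0.245 TPM, with highest values of 15.0 and 12.0 TPM. All 15 collecting duct genes had medians of 10 TPM or more in CCD.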

How the data were processed

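The single-cell, c-Kit, DBA and tubule tables hold TPM values that the authors deposited under 47069 Ensembl identifiers, and the GFP table holds the authors' read counts per gene from HTSeq-count, per the file headers. The submitters' processing notes name STAR 2.5.1b, RSEM 1.2.31, Seurat and GRCm38.p5 without saying which table each served, and the strand setting of the counting is not stated. Rows for reads outside genes, 66.7% to 72.9% per GFP sample, stayed out of library sizes and tests. Depth behind the TPM values is unknown, and the GFP samples had 35530885 to 40815091 reads in genes.

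Columns of the cell table were grouped by their type name, all were kept, and doublets were not searched for, since TPM values are not molecule counts. Means, medians and shares were computed in Python 3.11.15 with scipy 1.17.1. GFP counts were tested with edgeR 4.0.16 (TMM, filterByExpr, quasi-likelihood F test), and c-Kit against DBA with limma 3.58.1 (log2(TPM + 1), variance trend, genes averaging 1 TPM or more), in R 4.3.3. P-values were adjusted by Benjamini-Hochberg over all genes tested, with a threshold of 0.05. Both tests were checked on simulated data. No test crossed tables, and the 4 columns of the authors' RPKM table were not used. Values of some listed genes are counted in their lists but not reported here by name.

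Genes were named from lists of roles, as the 15 per direction with the largest difference (mean of 50 TPM or more and 1 TPM or more in at least 50% of cells of the higher group), and as the 6 with the largest SD of log2(TPM + 1) over the 19 columns at a mean of at least 100 TPM. Gene groups found by detection, and the overlaps with Kap, were chosen after seeing values. The members and lists were chosen with earlier results of these data known. The replicate differences of same-numbered samples correlated at 0.17 between GFP groups and 0.03 between c-Kit and DBA, with 2 pairs each, and the labels do not say that a number marks a shared animal or day, so the numbers were not taken to pair the samples. Alternatives changed 1 choice at a time (summary over cells, pseudocount, minimum level, cell types, DESeq2 1.42.0, size factors, filters, quantile normalization, replicate block and left-out samples). Leaving out the 9 columns was added after seeing the data.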

Additional observations from a re-analysis of the deposited data

Results flagged for a closer look

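Of 17 proximal tubule genes looked at in the 8 cTAL tubules, 6 had a highest tubule that stood far from the others, and all 6 flags came from the same tubule, cTAL number 1 of mouse 7. Lrp2 was at 12.03 TPM there, with 3.30 TPM in the next tubule. Miox was at 444.87 TPM against 171.61 TPM, Slc7a9 at 15.98 against 6.79 TPM, Spp2 at 9.32 against 0.26 TPM, Fmo1 at 57.02 against 15.18 TPM and Aadac at 27.52 against 10.84 TPM. Chance flags about 1 in 20 groups of samples when values are normally distributed. The TPM values here are skewed and some lie near 0, so their rate of chance flags is not known. Genes of 1 tubule are also not independent. The cause was not tested.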

How the results depend on the processing

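The numbers of genes with a 4-fold higher mean depend on how cells are summarised. Against 1046 genes higher in the proximal tubule columns and 1890 in collecting duct cells (35.6% of the called genes in the proximal tubule direction), medians over cells gave 344 and 216 (61.4%), a 10% trimmed mean 1402 and 324 (81.2%), a pseudocount of 10 TPM 430 and 409 (51.3%), a minimum of 50 TPM 445 and 381 (53.9%), no minimum 3353 for collecting duct, type B cells alone 1730 for proximal tubule (50.3%) and the 10 columns 3203 for collecting duct (22.7%). Other settings stayed within 1.5 times of these counts. Leaving out 1 sample gave 3616 to 4211 called genes between GFP samples against 5101, and 3458 to 5701 between c-Kit and DBA samples against 6348, where leaving out DBA replicate 1 gave 3600 and DBA replicate 2 gave 3458. Miox, at -0.10 between c-Kit and DBA samples, ranged from -0.23 to 0.034 when 1 sample was left out and turned positive without DBA replicate 2 (limma adjusted p = 0.789).

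The replicate block gave 5897 called genes between GFP samples and 6271 between c-Kit and DBA samples. Among the named genes it moved only Cyp2e1 past the threshold between c-Kit and DBA (log2 0.30, limma adjusted p = 0.011). DESeq2 called 5611 genes between GFP samples, and all 15 proximal tubule genes remained lower in GFP-positive samples under it. Depth limits what a 0 in a cell or tubule can show, since TPM keeps no count of reads.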

Other observations

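Levels of the most variable small RNA gene belong to no comparison. Gm24853, a small nucleolar RNA gene, had a mean of 678 TPM over the 19 proximal tubule columns and 1194 TPM over collecting duct cells, was at 1 TPM or more in 11 columns and ran from 0 to 3125 TPM. Its highest columns, 16, 12, 19 and 14, are among the 9 in which another marker sum exceeded the defining one.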
